A study of Mus musculus with 20 samples.

Results

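The 36 genes described here encode the enzymes and transporters of glycolysis, the breakdown of glucose to pyruvate and lactate, and proteins of the cell's response to low oxygen. They were picked by their symbols, and all 36 were among the 15465 genes with values in the breast cancer (BC) columns of the deposited table. The series holds 20 libraries of bulk tumour tissue in 5 groups of 4, from a pancreatic (PDAC) and a BC mouse model. Only the 8 BC libraries were used, because the PDAC values were not aligned to the gene names beside them. Both BC groups came from 4 mice, which each gave a primary tumour and a lung metastasis, labelled as 4T1 derived and taken at 28 days. The labels give no other allele, agent or treatment for either group, and the sources used here do not give the strain or age of the mice. 4T1 is a mouse mammary carcinoma line grown here as an orthotopic tumour, so both groups go back to 1 cell line. The comparison asks which of these genes differed between metastases and the matched primary tumours.

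Glycolysis converts glucose to pyruvate in a chain of cytosolic enzymes, and lactate dehydrogenase and monocarboxylate transporters then dispose of the pyruvate as lactate. In low oxygen the prolyl hydroxylases of the Egln family stop marking the alpha subunits of hypoxia-inducible factor (HIF) for destruction, and the factor switches on glycolytic genes together with genes for vessel growth, pH control, collagen modification and mitochondrial turnover. Both programmes are well known from fast-growing, poorly perfused tumours, and several of the genes are used as markers of tumour hypoxia.

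Values are the authors' normalised read counts, each divided by an adjusted library size, given library by library or as mean ± SD over 4 mice. Depth ran from 15447918 reads in lung metastasis 3 to 28995834 reads. Every value is a mixture of the cells in a tumour piece, and fewer cells of a type cannot be told apart from less RNA per cell. Lung epithelial markers summed to 7882 to 35871 in the metastases and to 111 to 153 in the primary tumours, and 15 of the 17 rose. Neutrophil markers summed to 8247 to 32794 against 401 to 2835, with 12 of 14 higher, and endothelial markers to 861 to 3323 against 392 to 1193, with 7 of 15 higher. No marker of these 3 lists was at 0 in all libraries of a group. Lung metastasis 3 had the highest sum of all 3 lists, and lung metastasis 4 the lowest of the lung epithelial and endothelial lists. The carcinoma epithelium list was taken for the labelled tumour, but its genes are general to epithelium, so lung epithelium can add to it. It summed to 1633 to 2943 in primary tumours and to 1117 to 3530 in metastases. Of its 12 genes 1 was higher (Krt19) and 1 lower (Cldn4). Outside lung metastasis 3 most of that sum was Krt8 and Krt18, and without them it was 480 to 696 in primary tumours and 520, 481, 695 and 902 in lung metastases 1 to 4. Lung metastasis 4 was the highest metastasis in 9 of the 12, and lung metastasis 3 the lowest in 2 (Krt8 and Krt18) and the highest in 2 (Cdh1 and Cldn3).

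In the glycolysis and hypoxia genes, primary tumour 2 and lung metastasis 3 stood apart from the other libraries. Primary tumour 2 was the highest of the 4 primary tumours in 28 of the 36 genes, and in 29.8% of all 14003 genes tested. Lung metastasis 3 was the lowest of the 4 metastases in 26 of the 36, and in 40.2% of all genes. Lung metastasis 4 was the highest metastasis in 25 of the 36, against 26.5% of all genes. Results are therefore also given without primary tumour 2 and lung metastasis 3. They were picked on the values of these same genes, so that leaving them out had to bring the groups closer.

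Of the 36 genes, 4 fell in the lung metastases and 0 rose (limma with Benjamini-Hochberg adjustment over all 14003 genes, adjusted p under 0.05). The 4 were Ddit4, an inhibitor of mTORC1 signalling that stress and hypoxia induce, Pdk1, a kinase that keeps pyruvate out of the mitochondrial citric acid cycle, Egln3, an oxygen-sensing prolyl hydroxylase, and Aldoc, an aldolase. Among all genes 9.13% were called, 1.96% lower and 7.18% higher in the metastases. The share of the 36 called in either direction, 11.1%, lay near the background of 9.13%. At an unadjusted p under 0.05 there were 8 lower (9.16% of all genes were) and 2 higher, 10 of 36 against 23% of all genes. Without lung metastasis 4 these were 15 lower (11.2% of all genes) and 2 higher. By edgeR 2 fell and 0 rose, with 7.5% of all genes called, and by DESeq2 6 fell and 2 rose, with 14.2% of all genes called. Array weights, which give less weight to libraries that stand apart, gave 6 lower and 2 higher (16.3% of all genes called). With the mouse as a block 4 fell (7.94%), and with columns scaled without lung, neutrophil and erythroid markers 2 fell (9.14%). Those that DESeq2 called higher were Vegfa, the vessel growth factor, and Pfkfb4, a regulator of glycolytic flux.

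The changes of the 36 genes leaned downwards, by an amount that differed with the libraries included. Medians below 0 for glycolysis and hypoxia lists were already known from earlier results of these data. The lean is therefore not an independent finding. With all 8 libraries 29 of 36 log2 changes were below 0, with a median of -0.41, while 54.9% of all genes were below 0, with a median of -0.06. Without primary tumour 2 and lung metastasis 3, 20 of 36 were below 0 and the median was -0.02, beside -0.03 for all genes. Leaving out primary tumour 2 alone gave 28 below 0 and a median of -0.27, leaving out lung metastasis 3 alone gave 26 and -0.18, and leaving out lung metastasis 4, which stood apart the other way, gave 30 and -0.60. Of the 4 genes called, Ddit4, Pdk1 and Egln3 passed the test without those libraries, where 9.56% of all genes were called, and Aldoc did not (adjusted p = 0.0525).

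**Figure D1:**
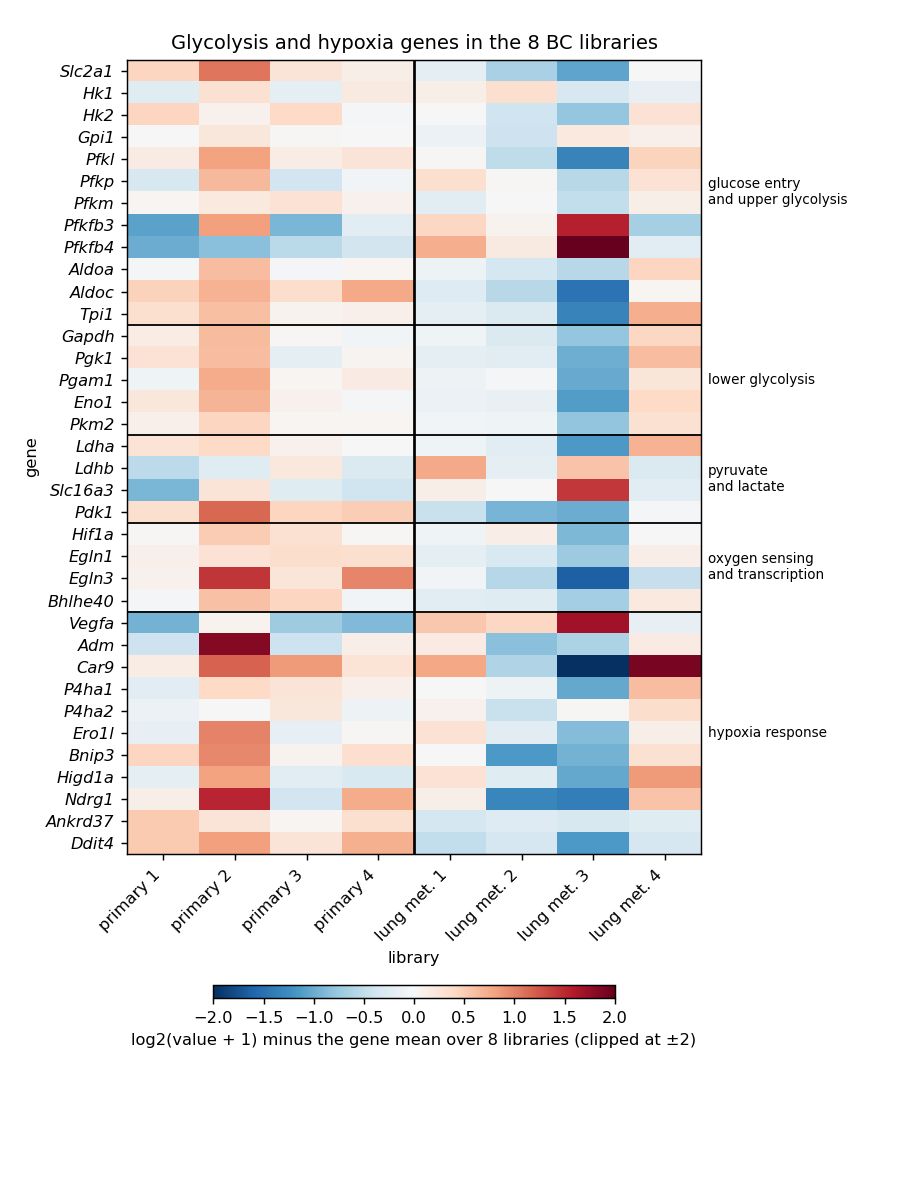
Heat map of the 36 genes (rows, in 5 role groups) in the 8 BC libraries (columns), where colour is log2(value + 1) minus the mean of the gene over the 8 libraries, clipped at 2 on either side. Primary tumour 2 is the highest primary tumour in 28 rows and lung metastasis 3 the lowest metastasis in 26, whereas Vegfa, Pfkfb3, Pfkfb4 and Slc16a3 are highest in lung metastasis 3.

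The start-site sequences of the 4 genes that fell are shown because they carry the calls, and because HIF binds a short core that can be looked for in them. The bases are the 250 before the annotated start of transcription in RefSeq, build GRCm38.p6, 5′ to 3′ on the gene's strand. Capitals mark each match to ACGTG or GCGTG, the HIF-binding cores, on either strand. Ddit4 (ENSMUSG00000020108) lies on the minus strand at chr10:59951771-59952020, Pdk1 (ENSMUSG00000006494) on the plus strand at chr2:71872974-71873223, Egln3 (ENSMUSG00000035105) on the minus strand at chr12:54203875-54204124 and Aldoc (ENSMUSG00000017390) on the plus strand at chr11:78322823-78323072.
Ddit4: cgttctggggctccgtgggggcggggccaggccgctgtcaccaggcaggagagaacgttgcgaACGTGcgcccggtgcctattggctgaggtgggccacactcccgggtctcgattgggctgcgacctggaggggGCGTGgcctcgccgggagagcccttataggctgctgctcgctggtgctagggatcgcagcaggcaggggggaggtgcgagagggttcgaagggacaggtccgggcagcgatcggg
Pdk1: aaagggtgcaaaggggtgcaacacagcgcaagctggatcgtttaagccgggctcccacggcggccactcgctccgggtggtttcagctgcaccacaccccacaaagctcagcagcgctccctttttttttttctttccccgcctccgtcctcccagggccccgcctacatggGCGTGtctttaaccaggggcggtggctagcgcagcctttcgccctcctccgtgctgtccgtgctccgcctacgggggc
Egln3: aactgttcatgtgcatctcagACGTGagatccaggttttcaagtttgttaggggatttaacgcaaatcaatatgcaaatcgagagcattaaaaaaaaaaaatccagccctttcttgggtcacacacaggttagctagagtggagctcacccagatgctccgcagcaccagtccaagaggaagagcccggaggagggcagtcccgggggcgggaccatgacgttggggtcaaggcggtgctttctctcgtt
Aldoc: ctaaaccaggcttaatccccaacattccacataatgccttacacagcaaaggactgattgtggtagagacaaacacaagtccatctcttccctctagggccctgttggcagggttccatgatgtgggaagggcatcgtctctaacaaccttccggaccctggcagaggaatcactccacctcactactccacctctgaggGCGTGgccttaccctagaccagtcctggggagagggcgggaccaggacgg

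Ddit4 held an ACGTG that begins 187 bases before the start and a GCGTG at 115 bases. Pdk1 held a GCGTG at 78 bases, Aldoc a GCGTG at 50 bases and Egln3 an ACGTG at 229 bases. Pdk1 and Aldoc have a further annotated start whose sequence is not shown. In the 250 bases before it, Pdk1 held neither core, and Aldoc held a GCGTG on the opposite strand at 39 bases. In all, 34 of the 36 genes matched a RefSeq window of 300 bases (250 before and 50 after the start), with 48 windows between them. Either core was found in 40 of these windows (83.3%), against 14380 of all 32851 windows (43.8%). ACGTG was in 58.3% of the windows of these genes and 19.6% of all, and GCGTG in 60.4% and 32.4%. The windows of these genes were also richer in G and C, at a median of 62.8% against 52.7%, and ACGTG is part of the palindrome CACGTG that other factors bind. The list was chosen for programmes that HIF switches on, so a higher share partly restates the choice of genes. The 32851 windows cover 27025 genes, not only those tested here. A match describes the letters only. Gpi1 and Tpi1 had neither core in the window, and Bhlhe40 and Ndrg1 were not matched.

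Glucose entry and the upper, energy-consuming steps of glycolysis covered 12 genes, of which 1 fell and 0 rose. That was 8.33% called, beside 9.13% of all genes. At an unadjusted limma p under 0.05, 2 were lower and 1 higher, where 23% of all genes passed in either direction. Changes were below 0 in 9, with a median of -0.29 (7 and -0.12 without primary tumour 2 and lung metastasis 3). Aldoc, the brain-type aldolase isoform, stood at 30.4, 35.7, 27.9 and 37.5 in primary tumours 1 to 4 and at 18.1, 14.5, 7.23 and 22.3 in lung metastases 1 to 4. All 4 metastases were below all 4 primary tumours, by 2.12-fold in the means (log2 change -1.13, SE 0.310, limma adjusted p = 0.0480). That call is at the threshold. It ended in 10 of 19 alternatives, among them edgeR (adjusted p = 0.0694), with adjusted p between 0.00739 and 0.148 over all 19.

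Slc2a1, the basal glucose transporter GLUT1, stood at 171, 267, 152 and 137 in the primary tumours and at 112, 80.2, 60.6 and 127 in the metastases. The groups did not overlap, and the metastasis was lower in all 4 mice, by 1.91-fold in the means, without passing the test (log2 change -0.94, SE 0.273, limma adjusted p = 0.0599). It passed with DESeq2 (adjusted p = 0.0258), with array weights (0.0346) and without lung metastasis 4 (0.0417), over a range of 0.0258 to 0.153. Pfkfb4, which makes and removes the phosphofructokinase activator fructose 2,6-bisphosphate, ran the other way. It stood at 14.4, 16.1, 20.0 and 22.6 in the primary tumours and at 49.7, 33.4, 124 and 25.2 in the metastases. The metastases were all higher, with lung metastasis 3 far above the other 3 (log2 change 1.36, SE 0.419, limma adjusted p = 0.0730). DESeq2 (adjusted p = 0.00455), array weights (0.0126) and leaving out lung metastasis 4 (0.0334) called it, with a largest adjusted p of 0.186. Lung metastasis 3 also had the highest lung epithelial and neutrophil sums, and the part of those cells in the values of Pfkfb4 was not tested.

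The other genes of the upper pathway overlapped between groups. Pfkl, the liver-type phosphofructokinase, ranged from 311 to 491 in primary tumours and from 111 to 383 in metastases (log2 change -0.69, adjusted p = 0.262). Hk2, the inducible hexokinase, stood at 148 ± 23.9 against 112 ± 35.7 in metastases (log2 change -0.44), and Hk1, the constitutive hexokinase, at 106 ± 19.8 against 104 ± 21.0 (-0.02). Pfkp and Pfkm, the platelet and muscle phosphofructokinases, had changes of 0.04 and -0.30. Pfkfb3, the inducible relative of Pfkfb4, was highest in lung metastasis 3 at 126, with 26.3 to 56.8 in the other metastases and 19.5 to 75.7 in primary tumours. Gpi1, the glucose phosphate isomerase, differed by -0.12, Aldoa, the main aldolase, by -0.29 and Tpi1, the triose phosphate isomerase, by -0.55, none past the test.

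Lower glycolysis, the energy-yielding steps, covered 5 genes with 0 called by limma and 0 at an unadjusted p under 0.05, and edgeR and DESeq2 called 0 as well. All 5 changes were below 0, between -0.49 and -0.31, and all 5 genes were lowest in lung metastasis 3. Without lung metastasis 3 the changes lay between -0.20 and -0.10, and without primary tumour 2 as well between -0.05 and 0.02. Eno1, the enolase, stood at 572, 788, 522 and 483 in the primary tumours and at 454, 442, 226 and 644 in the metastases (log2 change -0.49, SE 0.309, adjusted p = 0.381). Gapdh stood at 624, 868, 570 and 538 against 530, 460, 328 and 749 (log2 change -0.37, SE 0.274, adjusted p = 0.458). In both genes the metastasis was lower in mice 1 to 3 and higher in mouse 4. Pgam1, the phosphoglycerate mutase, stood at 36, 64.9, 39.5 and 43.2 against 35.7, 37.8, 18.5 and 45.7 and also overlapped (adjusted p = 0.403). Pgk1, the phosphoglycerate kinase, ranged from 155 to 273 in primary tumours and from 89.2 to 274 in metastases. Pkm2, the table's symbol for muscle pyruvate kinase, ranged from 1998 to 2644 and from 1132 to 2416. Gapdh, Eno1, Pgam1, Tpi1, Aldoa, Pkm2, Ldha and Pgk1 have near-identical pseudogene copies or relatives, so their levels are uncertain where reads were split. Gapdh and Pgk1 are also common reference genes, and none of the 14 genes on a separate list of reference genes was called.

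The fate of pyruvate was covered by 4 genes. Pdk1 phosphorylates and inhibits pyruvate dehydrogenase, and its transcript stood at 62.8, 113, 68.4 and 71.2 in the primary tumours and at 36.8, 25.9, 24.8 and 49.2 in the metastases. The groups did not overlap and the metastasis was lower in all 4 mice, by 2.31-fold in the means (log2 change -1.20, SE 0.262, limma adjusted p = 0.0167). The call ended without lung metastasis 1 or 2 or primary tumour 4 (adjusted p between 0.0512 and 0.0653) and held in the other 16 of 19 alternatives, down to an adjusted p of 0.00183. Without primary tumour 2 and lung metastasis 3 the log2 change was -0.88 (adjusted p = 0.0222).

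Ldha, the lactate dehydrogenase subunit that favours lactate formation, did not separate the groups. It ranged from 1195 to 1571 in primary tumours and stood at 1115, 1011, 538 and 1923 in the metastases, where lung metastasis 4 was 3.57-fold above lung metastasis 3. Ldhb, the heart-type subunit, stood at 26.1, 32.1, 44.1 and 31.0 against 65.1, 33.6, 56.9 and 31.1, higher in the metastasis of all 4 mice and without passing (log2 change 0.43, adjusted p = 0.384). Slc16a3, the lactate exporter MCT4, stood at 21.3, 49.2, 34.7 and 30.9 against 44.8, 41.4, 111 and 34.8 (log2 change 0.65, SE 0.364, adjusted p = 0.317). Apart from lung metastasis 3 its metastases lay within the range of the primary tumours.

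Oxygen sensing and transcription covered 4 genes, all with changes below 0 and a median of -0.50, and of -0.29 without primary tumour 2 and lung metastasis 3. Egln3, a prolyl hydroxylase that HIF itself induces, stood at 154, 389, 171 and 286 in the primary tumours and at 139, 96.5, 46.1 and 104 in the metastases. The groups did not overlap, though lung metastasis 1 lay close below primary tumour 1, and the means differed by 2.59-fold (log2 change -1.36, SE 0.371, limma adjusted p = 0.0455). The call ended in 10 of 19 alternatives, including edgeR (adjusted p = 0.0589), a pseudocount of 5 (0.0521) and the omission of any of 7 libraries, over a range of 0.00580 to 0.141. Without primary tumour 2 and lung metastasis 3 the change was -0.80 (adjusted p = 0.0433).

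Egln1, the main HIF prolyl hydroxylase of most cells, stood at 126, 144, 150 and 148 against 104, 95.3, 70.6 and 129 in the metastases. The metastasis was lower in all 4 mice and the groups overlapped only at lung metastasis 4 and primary tumour 1 (log2 change -0.53, SE 0.192, adjusted p = 0.123, and 0.0237 with array weights). Bhlhe40, a HIF-induced transcriptional repressor of the circadian clock family, stood at 91.9, 141, 127 and 90.3 against 79.5, 79.1, 58.3 and 108 (log2 change -0.47, SE 0.224, adjusted p = 0.240). Hif1a, whose protein rather than transcript is mainly set by oxygen, stood at 261 ± 44.3 against 198 ± 55.0 (log2 change -0.43, adjusted p = 0.314), and it was lower in the metastasis of all 4 mice.

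**Figure D2:**
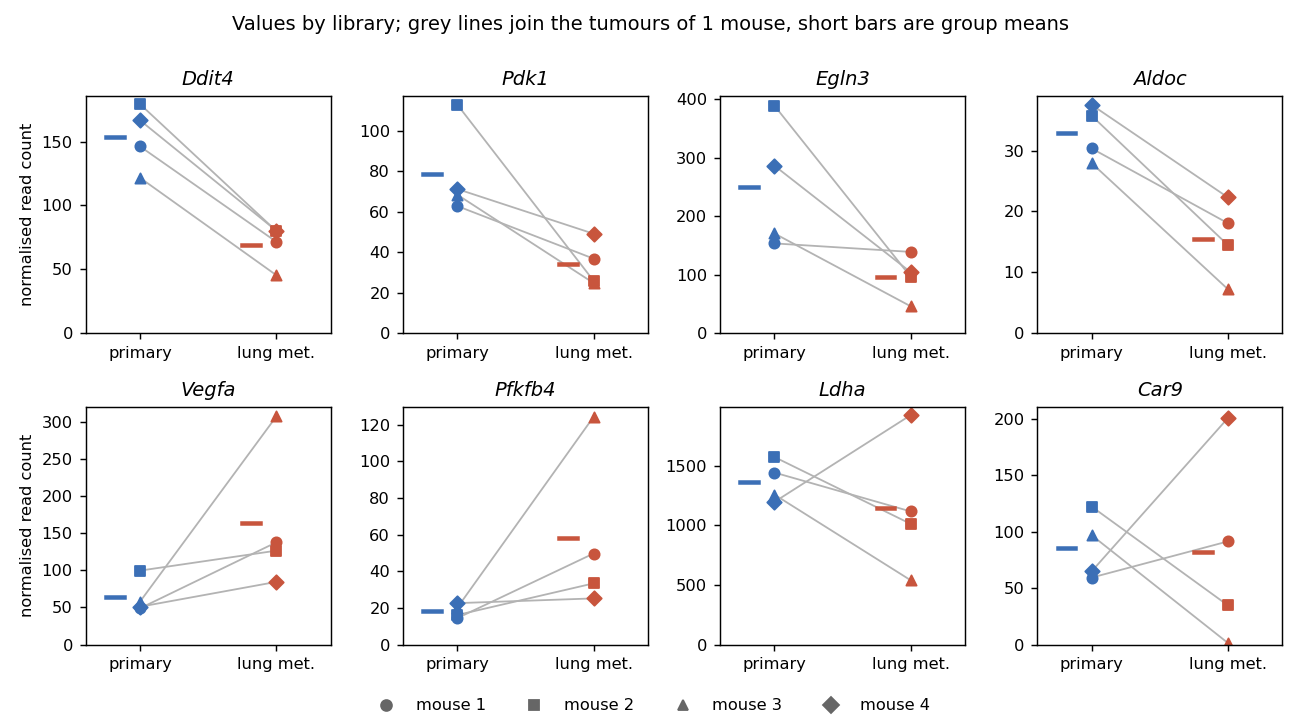
Normalised read counts (linear axes from 0) of 8 of the genes in each library, with grey lines joining the primary tumour and lung metastasis of a mouse and short bars at the group means. Ddit4, Pdk1, Egln3 and Aldoc fall in all 4 mice, Vegfa and Pfkfb4 are higher in all 4 metastases than in the matched primary tumours, and Ldha and Car9 split, with lung metastasis 3 lowest and lung metastasis 4 highest.

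The hypoxia response proper covered 11 genes, of which 1 fell and 0 rose, with a median of -0.57 and 9 changes below 0. That was 9.09% called, beside 9.13% of all genes. At an unadjusted limma p under 0.05, 3 were lower and 1 higher, where 23% of all genes passed in either direction. Without primary tumour 2 and lung metastasis 3 the median was 0.06, with 5 below 0. Ddit4 gave the smallest p of the 36. It stood at 146, 179, 122 and 167 in the primary tumours and at 71.6, 79.98, 45.4 and 80.2 in the metastases. Every metastasis was well below every primary tumour, by 2.21-fold in the means (log2 change -1.16, SE 0.215, limma adjusted p = 0.00771). It was called in all 19 alternatives (adjusted p 2.42e-05 to 0.0365), and its change without primary tumour 2 and lung metastasis 3 was -0.89 (adjusted p = 0.00279).

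Vegfa was the exception in direction. It stood at 48.7, 99.4, 57.7 and 50.8 in the primary tumours and at 138, 126, 307 and 84.3 in the metastases. The metastasis was higher in all 4 mice, but lung metastasis 4 lay below primary tumour 2, so the groups overlapped (ratio of the means 2.55, log2 change 1.23, SE 0.367, limma adjusted p = 0.0643). It passed with DESeq2 (adjusted p = 0.00991), with array weights (0.00389), without primary tumour 2 (0.0425), without lung metastasis 4 (0.0308) and without primary tumour 2 and lung metastasis 3 (0.00283), with a largest adjusted p of 0.181. In the last of these the log2 change was 1.10. Within the metastases its order, lung metastasis 3, 1, 2 and 4, was that of the lung epithelial sums (35871, 20022, 10624 and 7882) and of the endothelial sums (3323, 1426, 1082 and 861), which cannot be told apart by order. Lung epithelium is a known source of Vegfa, and the part of either list in these values was not tested.

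Bnip3, which triggers removal of mitochondria, stood at 128, 184, 99.4 and 119 in the primary tumours and at 94.97, 42.0, 48.3 and 116 in the metastases. It was lower in all 4 mice, overlapped between groups and did not pass (log2 change -0.90, SE 0.329, adjusted p = 0.131), except without lung metastasis 4 (0.0495). Ankrd37, a HIF target of unclear function, was the most even of the 36 genes between metastases, at 14.4 ± 2.12 in primary tumours and 9.19 ± 0.344 in metastases. Its groups did not overlap, yet it passed only with DESeq2 (adjusted p = 0.143 with limma, 0.0305 with DESeq2). Ndrg1, a differentiation-linked stress gene, ranged from 135 to 509 and from 66.5 to 262 (log2 change -0.998, adjusted p = 0.270). Adm, the vasodilator adrenomedullin, stood at 50.8 in primary tumour 2 and at 9.91 to 15.0 in the other primary tumours, beside 7.12 to 15.4 in the metastases. P4ha1 and P4ha2, the collagen prolyl hydroxylases, had changes of -0.26 and 0.00, Ero1l, an oxidase of protein folding, of -0.34 and Higd1a, a mitochondrial protein, of -0.06, none past the test.

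Car9, the pH-regulating carbonic anhydrase used as a tissue marker of hypoxia, varied more between metastases than any other of the 36 genes, and is singled out after its values were seen. It stood at 59.2, 122, 96.9 and 64.7 in the primary tumours and at 91.3, 34.7, 1.35 and 201 in the metastases. The value of lung metastasis 3 rested on 20 reads, 148-fold below lung metastasis 4 with 4774 reads. The group means were close, at 85.8 ± 29.4 and 82.0 ± 87.4, although the log2 change was -1.23 (SE 1.08, adjusted p = 0.533). Its sign rested on lung metastasis 3, without which the change was 0.07, and 0.26 without primary tumour 2 as well. Of the carcinoma epithelium list, Krt8 and Krt18 shared that lowest and highest metastasis and the other 10 genes did not, and the part of carcinoma cells in the Car9 values was not tested.

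**Figure D3:**
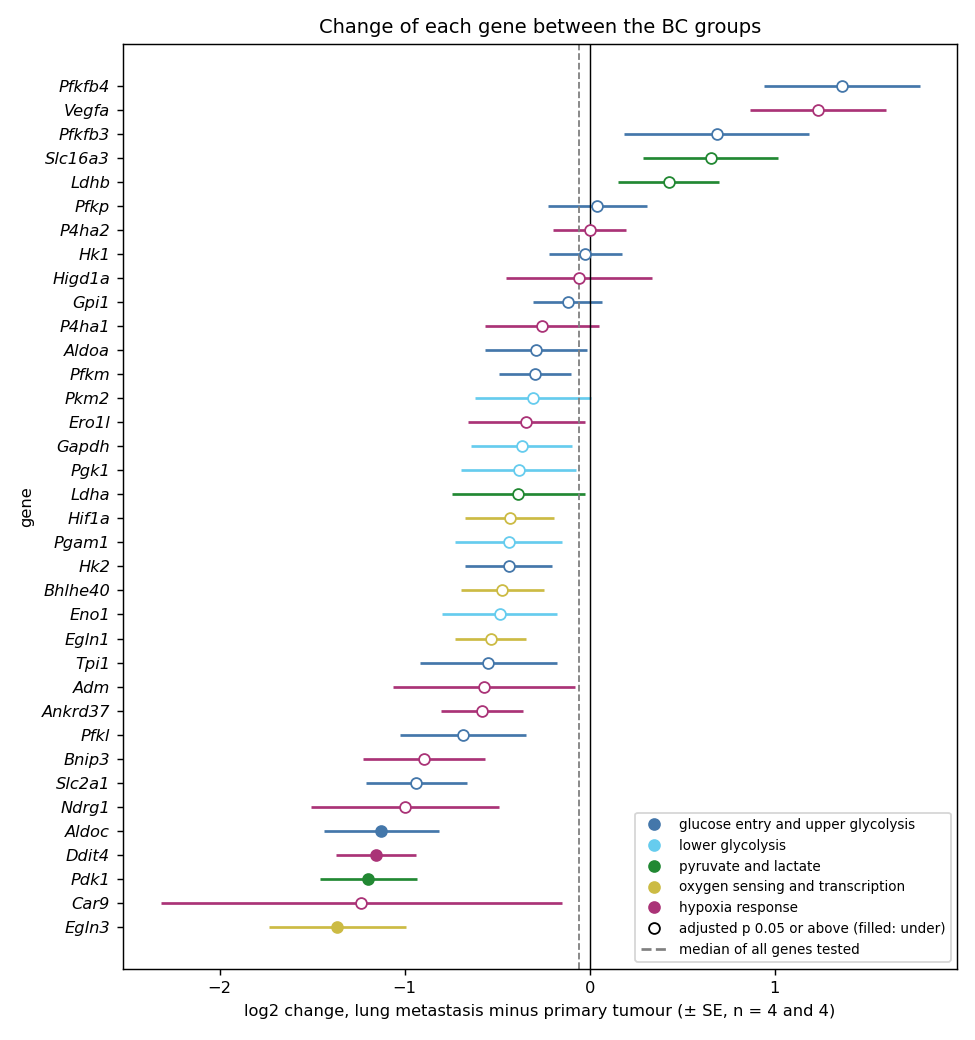
Log2 change of each of the 36 genes between lung metastases and primary tumours (points, with bars of ± SE, 4 libraries a group), coloured by role. Filled points passed an adjusted p of 0.05, the dashed line is the median of all 14003 genes (-0.06), and 29 of the 36 points lie below 0.

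In the count of groups that did not overlap, 6 of the 36 genes had all metastases below all primary tumours, where 7.56% of all genes did. They were Ddit4, Pdk1, Egln3, Aldoc, Slc2a1 and Ankrd37. Pfkfb4 was the reverse, making 7 in either direction against 17.9% of all genes. The 4 mice did not share a pattern. The metastasis was lower than its primary tumour in 22 of the 36 genes in mouse 1, 32 in mouse 2, 30 in mouse 3 and 12 in mouse 4, while between 47.9% and 52.9% of all genes were lower in each mouse. The median log2 change of the 36 was -0.13 in mouse 1, -0.80 in mouse 2, -0.91 in mouse 3 and 0.13 in mouse 4. In 9 genes the metastasis was lower in all 4 mice, and in 3 (Vegfa, Pfkfb4 and Ldhb) it was higher in all 4. The share of all genes with either pattern was not worked out, so these counts cannot be set against a background.

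The spread between metastases was larger than between primary tumours in 32 of the 36 genes, and in 75.9% of all genes. The median SD of the 36 on the log2 scale was 0.53 in metastases and 0.31 in primary tumours, beside 0.46 and 0.26 for all genes. Over all 8 libraries the median deviation of the 36 from their gene means was 0.62 in primary tumour 2, -0.83 in lung metastasis 3 and 0.19 in lung metastasis 4, and between -0.25 and 0.07 in the other 5. The same median over all genes stayed between -0.05 and 0.05. In primary tumour 2 the neutrophil markers summed to 2835 and the endothelial markers to 1193, the highest of the primary tumours, while the carcinoma epithelium list at 1633 (not without Krt8 and Krt18), the macrophage list at 1526 and the fibroblast list at 1021 were the lowest. What these cell types contribute to the libraries that stood apart was not tested.

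**Figure D4:**
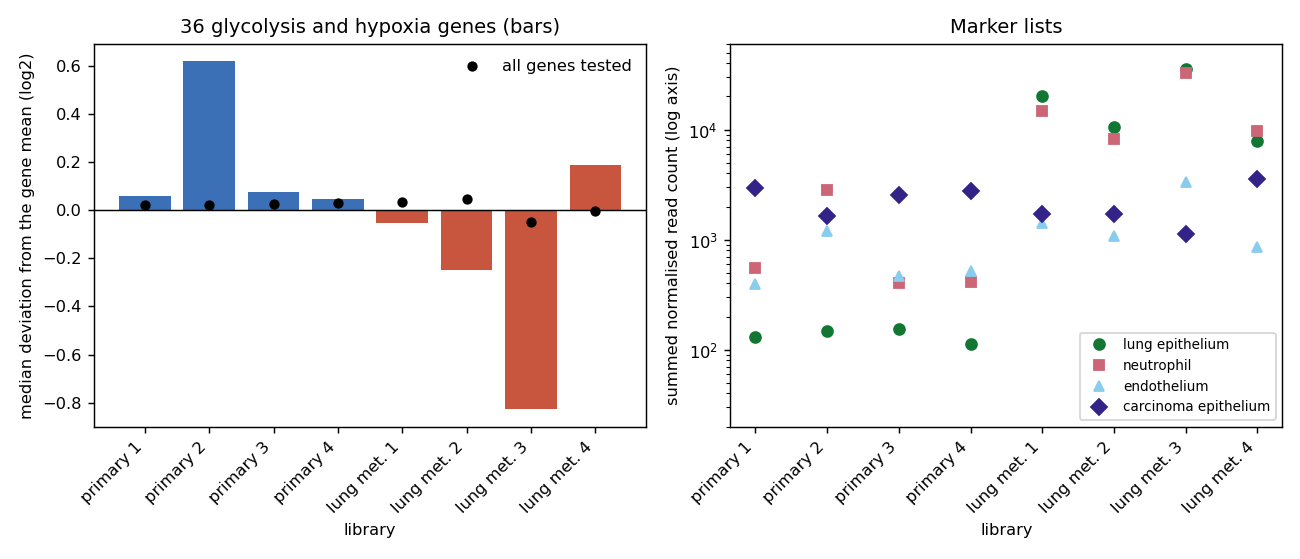
Left, the median over the 36 genes of the deviation of log2(value + 1) from the gene mean in each library (bars, blue primary tumours and red lung metastases), with black points for all genes tested. Right, summed normalised read counts of 4 marker lists on a log axis, where lung metastasis 3 has the highest lung epithelial sum (35871) and the lowest carcinoma epithelium sum (1117), most of which elsewhere is Krt8 and Krt18.

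Other genes of the pathways were listed without picking them for how they moved, though with earlier results of these data known. Of 49 further glycolysis and pyruvate genes 39 were tested, of which 4 rose and 1 fell, with a median of -0.09. That was 12.8% called, against 9.13% of all genes (7.18% higher and 1.96% lower). Slc2a3, the high-affinity glucose transporter GLUT3, rose from 3.10, 14.6, 3.71 and 4.33 in the primary tumours to 68.2, 46.8, 226 and 32.4 in the metastases (log2 change 3.48, SE 0.591, limma adjusted p = 0.00463), while Slc2a1 was lower without passing. The order of the metastases in Slc2a3 was that of the lung epithelial and the endothelial sums. Which cells the Slc2a3 values come from was not tested. Pygl, the liver glycogen phosphorylase, rose from 56.5 ± 40.5 to 262 ± 164, with the highest value in lung metastasis 3. The part of lung cells or neutrophils in its values was not tested. Fbp2, a fructose bisphosphatase, rose from 0.434 ± 0.373 to 4.27 ± 1.12, and Ppp1r3c, a glycogen-targeting phosphatase subunit, from 0.425 ± 0.493 to 9.67 ± 6.97. All primary tumour values of Fbp2 and Ppp1r3c were under 1, at most 0.907 and 0.910, so both passed the filter only through the metastases. A rise was thereby built into their being tested. Both count among the 4 that rose and in the 12.8% called. That share therefore cannot be read as an excess over all genes. Eno2, the neuronal enolase, fell from 24.0 ± 11.1 to 7.29 ± 4.28 (adjusted p = 0.0392, and 0.0673 with edgeR). Slc2a3 kept its call in each alternative, Fbp2 and Ppp1r3c lost it with edgeR (adjusted p = 0.0597 and 0.0572) and were tested in 14 of 19 alternatives, as they did not pass the filter on low values without a metastasis, Pygl without primary tumour 4 or lung metastasis 1, and Eno2 in 7 alternatives.

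Of 47 further oxygen sensing and hypoxia genes 45 were tested, of which 5 rose and 2 fell, with a median of -0.11. That was 15.6% called, against 9.13% of all genes. Epas1, which encodes HIF-2 alpha, rose from 17.5, 59.4, 22.5 and 22.4 to 539, 381, 1988 and 228 (log2 change 4.31, SE 0.593, limma adjusted p = 0.00137). All metastases were above all primary tumours, and the order of the metastases was again that of both the endothelial and the lung epithelial sums. Epas1 is known from lung endothelium, and the part of those cells was not tested. Lox, a collagen cross-linking oxidase, rose from 28.4 ± 13.7 to 104 ± 49.9, Vldlr, a lipoprotein receptor, from 2.37 ± 1.58 to 18.4 ± 13.5, and Rora, a nuclear receptor, from 9.42 ± 2.70 to 34.2 ± 17.0. Bhlhe41, the close relative of Bhlhe40, fell from 74.6 ± 21.9 to 21.8 ± 11.2 (log2 change -1.82, SE 0.347, adjusted p = 0.00892), with no overlap. The other calls of this list, added after their values were seen, were Cox4i2, a hypoxia-responsive cytochrome oxidase subunit, which rose from 2.89 ± 1.88 to 13.1 ± 7.70 (adjusted p = 0.0362), and Rbpj, the DNA-binding partner of Notch, which fell from 166 ± 8.33 to 90.6 ± 31.7 (adjusted p = 0.0473). Both lost the call with the mouse as a block (adjusted p = 0.0848 for Cox4i2 and 0.0536 for Rbpj), and in 7 and 12 of 19 alternatives in all. Lox lost the call without primary tumour 4 or lung metastasis 1 or 2 (adjusted p up to 0.0876), and Vldlr without primary tumour 1 or 4 or lung metastasis 2 (up to 0.0583).

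In isoform and partner ratios within a library the scaling enters only through the 1 added to both values, and 9 were compared with an exact two-sided permutation test of 4 against 4, whose smallest p is 0.0286. None passed after Benjamini-Hochberg adjustment over the 9, and 1 had an unadjusted p under 0.05. With that smallest p, 1 fully separated ratio on its own could not pass the adjustment. The absence of calls therefore does not show that the ratios were unchanged. That was Aldoc over Aldoa, whose log2 ratio differed by -0.83 between metastases and primary tumours with no overlap, lower in all 4 mice (exact p = 0.0286, adjusted p = 0.193). The largest difference was in Vegfa over Pgf, the placental growth factor, which was 3.64-fold higher in the metastases and higher in all 4 mice, with overlapping groups (exact p = 0.0857, adjusted p = 0.193). Pfkp over Pfkl was 1.66-fold higher and higher in all 4 mice (exact p = 0.0571). Egln3 over Egln1 differed by -0.83 on the log2 scale (exact p = 0.0857), Ldha over Ldhb by -0.81 (exact p = 0.257) and Hk2 over Hk1 by -0.41 (exact p = 0.229). Slc16a3 over Slc16a1, Pfkfb4 over Pfkfb3 and Car9 over Car12 had exact p-values of 0.429, 0.114 and 0.571.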

How the data were processed

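RNA of bulk tumour tissue was extracted with an RNeasy kit and sequenced from TruSeq libraries, per the labels' protocols. The deposited table holds a normalised signal per gene, in which the authors had divided the reads of a gene by an adjusted library size. The build was mm9, per the submitters' processing notes. For the aligner, counter and annotation the sources used here give nothing. Plain CPM had been assumed in planning, but column totals differ from each other. Dividing each BC column by its smallest step gave whole reads for 100% of values (tolerance 0.05 reads). The table has 37583 rows, 22117 of them without an identifier, and its 12 PDAC columns were not used. Promoter sequences are RefSeq's, GRCm38.p6, which differs from the files' build.

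The 14003 genes at 1 or more in 4 or more of the 8 libraries were tested with limma 3.58.1 (intensity trend, group means) on log2(value + 1), a scale on which the changes of low genes come out too small. It called 1279 genes. Alternatives were edgeR 4.0.16 and DESeq2 1.42.0 on recovered reads (1050 and 1985 genes called), other scalings, pseudocounts and filters, array weights, the mouse as a block, and leaving out libraries. The scripts were tested on simulated data. The 36 genes and all lists were chosen with earlier results of these data known. Every library's value is given for genes called and for the 3 with the smallest p in each of 5 role groups; of each wider list the 5 with the smallest p are named. Ldha, Pfkfb3, Adm, Ankrd37, Hif1a and Car9 were given in more detail after their values were seen. Ratios use log2((a + 1)/(b + 1)). Reads carry no molecular identifiers. Titles carry a mouse number and the design text calls the tissues matched, so the numbers pair tissues of 1 animal. Their deviations from group means correlated at -0.15 to 0.10 between tissues of a mouse.

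Marker lists covered lung epithelium, neutrophils, red cells, macrophages, endothelium, fibroblasts and matrix, T and NK cells, skeletal muscle, adipocytes, carcinoma epithelium, cell cycle and reference genes.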

Additional observations from a re-analysis of the deposited data

Results flagged for a closer look

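In groups of 4, a library was marked where its gap to the nearest of the others was too large a share of the range of the group by Dixon's critical value. Of 72 such groups 9 were marked, where about 1 in 20 is the rate for normally distributed values. The values were taken untransformed, and the share marked over all genes was not worked out. Primary tumour 2 gave 8 of the 9, each as the highest primary tumour. There Gpi1 stood at 472 (403 to 409 in the other primary tumours), Pfkl at 491 (311 to 338), Aldoa at 1419 (898 to 956), Pkm2 at 2644 (1998 to 2103), Pdk1 at 113 (62.8 to 71.2), Adm at 50.8 (9.91 to 15.0), Ero1l at 155 (68.5 to 78.0) and Higd1a at 55.9 (25.3 to 27.7). The ninth was Slc16a3, the lactate exporter, at 111 in lung metastasis 3 and 34.8 to 44.8 in the other metastases. The genes share libraries, so these marks are not independent of each other.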

How the results depend on the processing

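Ddit4 kept its call in each of 19 alternatives, Pdk1 in 16, and Aldoc and Egln3 in 9 each. Of the 36 genes, 2 were called lower when columns were scaled without the lung, neutrophil and erythroid markers and 2 with edgeR, against 4. Called higher were 2 with array weights, 2 with DESeq2 and 1 without primary tumour 2 and lung metastasis 3, against 0. Leaving out 1 library gave 1 to 5 lower and 0 to 2 higher. Of the wider lists, 3 fell and 9 rose, with 12.8% of the glycolysis and 15.6% of the hypoxia list called against 9.13% of all genes. The 9 include Fbp2 and Ppp1r3c, which passed the filter only through the metastases. Array weights gave 5 lower and 14 higher (16.3% of all genes called) and edgeR gave 1 lower (7.5%). In these lists leaving out 1 library gave 1 to 5 lower and 4 to 11 higher. With the mouse as a block 4 of the 36 were called lower, and the block changed no call among the 36 or the 5 named first in each wider list, but ended those of Cox4i2 (adjusted p = 0.0848) and Rbpj (0.0536). For the ratios the sign-flip test over 4 pairs cannot pass the threshold, and leaving out a library gives no test that can pass. Of all genes, 4.17% to 8.57% were called when 1 library was left out and 9.56% without primary tumour 2 and lung metastasis 3, against 9.13% with all. Depth was lowest in lung metastasis 3, where 1 read is worth 0.0676.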

Other observations

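Markers of other cell types that were not set beside a result above gave the following values. Cell cycle genes had a median log2 change of 0.38 with 1 of 14 higher, and summed to 1147 in lung metastasis 3 and to 2276 to 2661 in the other metastases, against 1253 to 2052 in primary tumours. Erythroid genes, of which all 5 tested rose, summed to 1970 to 9639 in metastases and 51.1 to 167 in primary tumours. Macrophage genes summed to 1360 to 2160 against 1526 to 3480, with 1 of 11 tested lower. Fibroblast and matrix genes had 1 higher and 3 lower of 12, at sums of 1544 to 2564 against 1021 to 2735, and T and NK cell genes 2 higher of 13, at 42.9 to 110 against 13 to 52.1. Adipocyte genes summed to 8.54 to 20.2 in metastases, with Adipoq and Lep at 0, and to 284 in primary tumour 1 and 20.4 to 139 in the other primary tumours, with 1 of 5 lower. Skeletal muscle genes summed to 44.2 to 102 against 24.2 to 96.7, with 1 of 4 higher (Myh7, log2 change 3.62). The others tested, Mylpf, Tnnt3 and Tnni2, had changes of -0.12, -0.66 and -0.69, none called.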
